A study of Homo sapiens with 6 samples.

Results

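Autophagy is the route by which a cell wraps part of its cytoplasm in a double membrane, the autophagosome, and delivers it to the lysosome. The genes described here are 44 that encode its core machinery and its cargo receptors, chosen by symbol and looked up by Ensembl identifier in the count table. All 44 were found, among 23227 genes in the table. The choice was made by function, and its rule uses no measured value. Earlier results of these data were known when the genes were chosen.

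In outline, the ULK1 kinase complex starts the process, a class III phosphatidylinositol 3-kinase marks the site with PI3P, and lipid is moved to the growing membrane by ATG9 vesicles and the ATG2 lipid transfer proteins. Enzymes that act like ubiquitin ligases then attach proteins of the ATG8 family (LC3 and GABARAP) to the membrane, where receptors such as p62, the product of SQSTM1, dock with their cargo. In myeloid leukaemia cells autophagy is known as a source of nutrients under metabolic stress and as a means of clearing damaged mitochondria. Messenger RNA levels measure neither the turnover of autophagosomes nor the amount of any of these proteins.

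The series holds 6 RNA-seq libraries of MV4-11, an acute myeloid leukaemia line with a KMT2A rearrangement and a FLT3 internal tandem duplication. The 3 controls (titled NC, letters the labels do not spell out) are described as receiving no treatment, and in the other 3 ENO1, which encodes the enolase of glycolysis, was knocked down. All 6 are given the genotype WT. Only 1 hairpin, sh2, is named in the knockdown columns, so effects of the hairpin and of the loss of ENO1 cannot be told apart. Whether the controls carried a control hairpin is not given, so effects of delivering a hairpin cannot be told apart from these either. Whether replicates are separate cultures is not said, so the p-values reflect only how these libraries spread, and that spread may be technical. The comparison asks how transcript levels differ with and without the knockdown.

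Library totals lay between 24778469 and 26373960 counts in the controls and between 20044602 and 21670135 in the knockdown libraries. The knockdown shows in ENO1 itself: the controls held 84016, 79566 and 80058 of its counts, the knockdown libraries 2225, 2225 and 2070, or 3.13% of the control level in the fit. Of 14 markers of a myeloid leukaemia line 13 were tested, of which 8 rose, 4 fell and HOXA9 had no call, and CD14 was near 0 in both groups. Of these, the granule genes MPO and LYZ fell to 16.3% and 18.8% of control, while PTPRC rose 2.14-fold, ITGAM 3.52-fold and KIT 15.7-fold, the last from 0.269 CPM (counts relative to the TMM-scaled library size, on the usual CPM scale). The 3 T cell markers and 1 erythroid marker that the table holds each summed to at most 0.139 CPM in any library. Among B cell markers PAX5 rose from 0.172 ± 0.0942 to 1.37 ± 0.514 CPM and CD79A from 0.257 ± 0.174 to 0.833 ± 0.221 CPM (SD, n = 3), and MS4A1 was at 0 in every control. The 2 megakaryocyte markers in the table summed to 3.16 to 4.59 and 4.54 to 6.15 CPM, GP1BA being called higher and ITGA2B not. The summed level of 6 epithelial and fibroblast markers was 28.6 to 30.9 CPM in the controls and 62.4 to 66.2 CPM in the knockdown libraries, from KRT8, KRT18 and TAGLN, while EPCAM and COL1A2 were near 0. Mitochondrially encoded genes took 6.69 to 6.88% of control counts and 9.27 to 9.69% of knockdown counts. The part of depth, of these markers and of the mitochondrial share in the results below was not tested, beyond the thinning to equal depth given at the end. Control replicate 2 and knockdown replicate 3 stood slightly apart from the others of their groups. In these bulk samples, fewer cells with a transcript and less of it per cell cannot be told apart.

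The autophagy genes moved in both directions, by small amounts. Of 43 members that passed the filter on low counts, the edgeR quasi-likelihood test (adjusted p below 0.05) called 16 higher and 15 lower after the knockdown, and 12 had no call. In all, 72.1% of the tested members were called, beside 59.9% of all 14635 genes tested. The shares in each direction were 37.2% higher and 34.9% lower for the members, beside 29.4% and 30.5% for all genes. The median log2 fold change (knockdown minus control) was -0.01 over the members and 0.00 over all genes. With upper-quartile and library-size scaling it was 0.03 and 0.05 over the members, beside 0.04 and 0.06 over all genes. The libraries of the groups did not overlap for 31 members (72.1%), beside 64.3% of all genes. Differences were small: the median size was 0.39 on the log2 scale for the members that rose and 0.25 for those that fell, beside 0.49 and 0.39 for all genes called, and no member reached 2-fold. Over all genes tested, called or not, the median size was 0.25 for the members and 0.30 for all genes. The members and all genes were not matched for level in these comparisons. At least 1.5-fold differences were found for 2 members that rose (4.65%, beside 12.3% of all genes) and 3 that fell (6.98%, beside 8.77%). These were GABARAP (chr17:7240014-7242770, minus strand) and GABARAPL1 (chr12:10212458-10223130, plus strand) on the upper side. On the lower side were GABARAPL2 (chr16:75566351-75577881, plus strand), ULK1 (chr12:131894651-131923167, plus strand) and RB1CC1, all placed by GENCODE release 29 on GRCh38. Without the libraries that stood apart the counts were 15 higher and 16 lower.

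**Figure D1:**
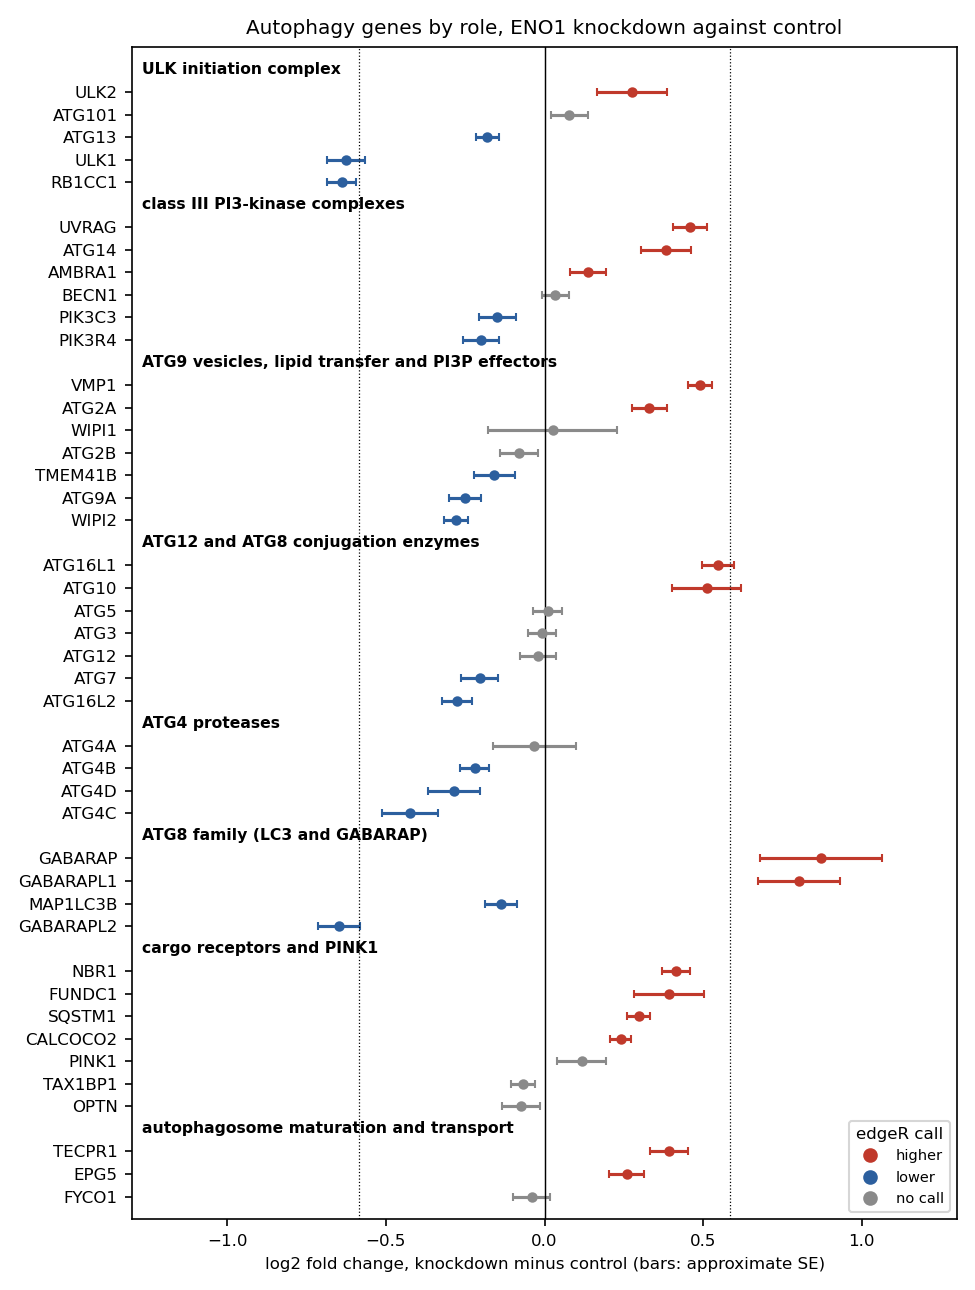
Log2 fold change of 43 autophagy genes, knockdown minus control, grouped by role (3 libraries a group; bars are approximate standard errors, colours are the edgeR call, dotted lines mark 1.5-fold). Most points lie within 1.5-fold; GABARAP and GABARAPL1 lie beyond it on the right and ULK1, RB1CC1 and GABARAPL2 on the left.

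Among the genes of the initiation complex, transcripts of the kinase ULK1 and of the scaffold RB1CC1 were lower. ULK1, the serine/threonine kinase that receives signals from mTORC1 and AMPK, stood at 39.5, 39.0 and 40.2 CPM in the controls and at 27.3, 24.9 and 24.8 CPM in the knockdown libraries. Every knockdown library was below every control. Group means were 39.6 ± 0.612 and 25.7 ± 1.41 CPM (SD, n = 3), and ULK1 fell by 0.62 on the log2 scale (standard error 0.06, approximate here and throughout; edgeR adjusted p = 7.49e-10). RB1CC1, the large scaffold also named FIP200, stood at 107, 103 and 111 CPM in the controls and at 63.8, 72.6 and 69.1 CPM with the knockdown. It fell to 64.2% of the control level, a log2 fold change of -0.64 with a standard error of 0.05 (edgeR adjusted p = 2.61e-12), again with no overlap. ATG13, the regulatory subunit that links ULK1 to the scaffold, fell slightly, by 0.18 on the log2 scale (edgeR adjusted p = 0.000129). ATG101, the partner that stabilises ATG13, had no call, with a log2 fold change of 0.08 (edgeR adjusted p = 0.265).

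ULK2, the paralog of ULK1, moved the other way. It stood at 9.56, 8.16 and 8.12 CPM in the controls and at 9.95, 9.57 and 11.9 CPM in the knockdown libraries, a log2 fold change of 0.28 with a standard error of 0.11 (edgeR adjusted p = 0.0335). The groups did not overlap, but the lowest knockdown and the highest control value lay close together. The ULK2 call was lost with DESeq2 (adjusted p = 0.0705) and without a filter on low counts (edgeR adjusted p = 0.0561). It was also lost without control replicate 2 (edgeR adjusted p = 0.115), control replicate 3 (0.128) or knockdown replicate 3 (0.205), and its adjusted p ran from 0.0122 to 0.355 over all alternatives. Per length, ULK1 was the more abundant of the pair, at 17.6 ± 0.502 TPM (counts per kilobase of exon, scaled to the same sum in every library) against 2.96 ± 0.302 TPM for ULK2 in the controls (SD, n = 3).

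Within the class III PI3-kinase complexes the catalytic core and the accessory subunits went different ways. PIK3C3, the lipid kinase VPS34, stood at 41.6, 41.2 and 42.1 CPM in the controls and at 34.1, 38.0 and 40.6 CPM with the knockdown, a log2 fold change of -0.15 with a standard error of 0.06 (edgeR adjusted p = 0.0333). With all 6 libraries kept, the call was lost with upper-quartile scaling (edgeR adjusted p = 0.113), library-size scaling (0.169), a filter of 5 CPM (0.105) and DESeq2 (0.0764). It was also lost when any control was left out (edgeR adjusted p of 0.0653, 0.0555 and 0.0928 for control replicates 1, 2 and 3) and without knockdown replicate 1 (0.253) or 2 (0.0538). Its adjusted p ran from 0.00187 to 0.253 over all alternatives. PIK3R4, the regulatory subunit VPS15, fell to 87.0% of control (log2 fold change -0.20, edgeR adjusted p = 0.00299). BECN1, the Beclin 1 scaffold shared by both forms of the complex, was at 75.9, 72.3 and 71.0 CPM in the controls and at 74.7, 75.4 and 74.4 CPM in the knockdown libraries. The BECN1 groups overlapped and there was no call (log2 fold change 0.03 with a standard error of 0.04, edgeR adjusted p = 0.517).

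The subunits that define the alternative forms of the complex were higher. ATG14, which directs the kinase to autophagosome formation, stood at 15.2, 14.4 and 14.0 CPM in the controls and at 18.9, 18.6 and 19.5 CPM with the knockdown, a rise of 0.38 on the log2 scale with a standard error of 0.08 (edgeR adjusted p = 0.000145). UVRAG, which takes the place of ATG14 in the complex that acts at endosomes, stood at 40.5, 37.4 and 38.8 CPM in the controls and at 53.0, 51.5 and 56.0 CPM with the knockdown. It rose by 0.46 with a standard error of 0.05 (edgeR adjusted p = 2.68e-08). For both genes all knockdown libraries were above all controls. AMBRA1, a regulator that binds Beclin 1, was called higher by 0.14 (edgeR adjusted p = 0.0351) although its groups overlapped, with 41.0, 43.5 and 44.2 CPM in the controls and 49.7, 47.7 and 43.9 CPM with the knockdown. The AMBRA1 call was lost without a filter (edgeR adjusted p = 0.0909), after thinning to equal depth (0.0566) and with DESeq2 (0.0718). It was also lost without control replicate 1 (edgeR adjusted p = 0.198) or 2 (0.0578), or without knockdown replicate 1 (0.197) or 2 (0.0988). Its adjusted p ran from 0.00339 to 0.198 over all alternatives.

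Among the genes of membrane supply, VMP1 and ATG2A were higher and ATG9A and WIPI2 lower. VMP1, a scramblase of the endoplasmic reticulum, stood at 94.7, 96.8 and 94.8 CPM in the controls and at 128, 135 and 139 CPM with the knockdown. It rose by 0.49 on the log2 scale with a standard error of 0.04 (edgeR adjusted p = 1.62e-11). TMEM41B, a scramblase of the same membrane, fell by 0.16 (edgeR adjusted p = 0.0370). With all 6 libraries kept, that call was lost with upper-quartile (0.114) and library-size scaling (0.165), a filter of 5 CPM (0.101), DESeq2 (0.0839) and thinning (0.0625). It was also lost without control replicate 1 (0.0827) or 2 (0.0998) or knockdown replicate 1 (0.0588) or 2 (0.245), and the adjusted p ran from 0.00332 to 0.245 over all alternatives. The lipid transfer protein ATG2A rose by 0.33 (edgeR adjusted p = 6.85e-06), while its paralog ATG2B had no call at -0.08 (0.261). WIPI2, the PI3P reader that recruits ATG16L1, fell by 0.28 (edgeR adjusted p = 5.06e-07). ATG9A, the scramblase carried on ATG9 vesicles, fell by 0.25 (edgeR adjusted p = 0.000115). WIPI1, another PI3P reader, was scarce, at 50 to 75 counts in a control and 47 to 62 in a knockdown library, with no call (log2 fold change 0.03, standard error 0.20).

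The conjugation enzymes were split as well. ATG7, the E1-like enzyme that activates both ATG12 and the ATG8 proteins, stood at 42.5, 39.7 and 43.2 CPM in the controls and at 33.8, 38.7 and 36.2 CPM in the knockdown libraries, a log2 fold change of -0.20 with a standard error of 0.06 (edgeR adjusted p = 0.00389). ATG10, the E2-like enzyme for ATG12, rose by 0.51 (edgeR adjusted p = 0.000208) from a low level, 157 to 187 counts in the controls. Of its 50-base stretches 5.80% also occur in transcripts of RPS23, which lies opposite and held 50287 counts over all libraries. The strand setting of the counting is not given, so the level and change of ATG10 are uncertain. ATG5, the acceptor of ATG12, was at 64.9, 61.6 and 61.8 CPM in the controls and at 62.1, 64.6 and 63.0 CPM with the knockdown. Its groups overlapped, with a log2 fold change of 0.01 and a standard error of 0.05 (edgeR adjusted p = 0.863). ATG12, the ubiquitin-like protein itself, and ATG3, the E2-like enzyme for ATG8 proteins, also had no call, at -0.02 and -0.01.

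ATG16L1, which places the conjugation machinery on the membrane, rose, and its paralog ATG16L2 fell. ATG16L1 stood at 42.2, 40.9 and 38.8 CPM in the controls and at 58.7, 59.9 and 59.3 CPM in the knockdown libraries, a rise of 0.55 on the log2 scale with a standard error of 0.05 (edgeR adjusted p = 3.67e-10). ATG16L2 stood at 68.5, 66.9 and 66.8 CPM in the controls and at 56.8, 57.0 and 53.2 CPM with the knockdown, a log2 fold change of -0.28 with a standard error of 0.05 (edgeR adjusted p = 1.18e-05). For both genes the groups were well separated. Of the 4 ATG4 proteases, which trim new ATG8 proteins and strip them from membranes, 3 were called lower and ATG4A had no call. The share called lower was 30.5% over all genes tested, and a count in so small a group is a description only. The 3 called lower were ATG4C at -0.42 (edgeR adjusted p = 0.000167), ATG4D at -0.29 (0.00532) and ATG4B, the main protease for LC3, at -0.22 (0.000163). ATG4D lies opposite KRI1, which held 17951 counts over all libraries beside 4185 for ATG4D. KRI1 was itself called lower at -0.44, so the change of ATG4D is uncertain. ATG4A was at -0.03 with a standard error of 0.13. Its sign turned positive in 6 of 16 alternative fits, upper-quartile and library-size scaling among them.

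The widest spread was within the ATG8 family. GABARAPL2, also known as GATE-16, stood at 40.2, 39.4 and 41.1 CPM in the controls and at 22.9, 25.9 and 28.2 CPM in the knockdown libraries. It fell to 63.8% of control, a log2 fold change of -0.65 with a standard error of 0.07 (edgeR adjusted p = 2.16e-09). GABARAPL1 stood at 4.70, 5.37 and 4.14 CPM in the controls and at 7.62, 8.21 and 9.0 CPM with the knockdown, a 1.74-fold rise (log2 fold change 0.80, standard error 0.13, edgeR adjusted p = 5.96e-06). In each of these genes the groups were clearly apart, in opposite directions. GABARAP stood at 4.63, 3.57 and 4.97 CPM in the controls and at 7.90, 10.4 and 5.70 CPM with the knockdown, a log2 fold change of 0.87 with a standard error of 0.19 (edgeR adjusted p = 0.00118). The GABARAP knockdown libraries were widely spread, and of its 50-base stretches 48.9% also occur in transcripts of other annotated genes, so its level and change are uncertain.

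MAP1LC3B, the LC3 protein most used as an autophagosome marker, stood at 53.1, 51.7 and 53.5 CPM in the controls and at 46.1, 48.1 and 49.7 CPM in the knockdown libraries. It was called lower by edgeR with a log2 fold change of -0.14 and a standard error of 0.05 (edgeR adjusted p = 0.0191). That call was lost without control replicate 1 (0.0501) or 3 (0.0656), without knockdown replicate 1 (0.0902), and under upper-quartile (0.0879) or library-size scaling (0.146) or a filter of 5 CPM (0.0766), over a range of 0.00391 to 0.146. MAP1LC3A had 3, 10 and 5 counts in the controls, with the knockdown 3, 4 and 2, and was the only member that did not pass the filter. Summed per length, the 5 ATG8 genes came to 90.2, 85.9 and 91.8 TPM in the controls and 71.4, 79.1 and 76.2 TPM with the knockdown. GABARAPL2 (44.8 ± 1.52 TPM) and MAP1LC3B (33.6 ± 1.08 TPM) made up most of the control sum (SD, n = 3). The sum includes GABARAP, whose level is uncertain for the reason given above. The family total, its change and the share of each gene in it are therefore uncertain too.

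**Figure D2:**
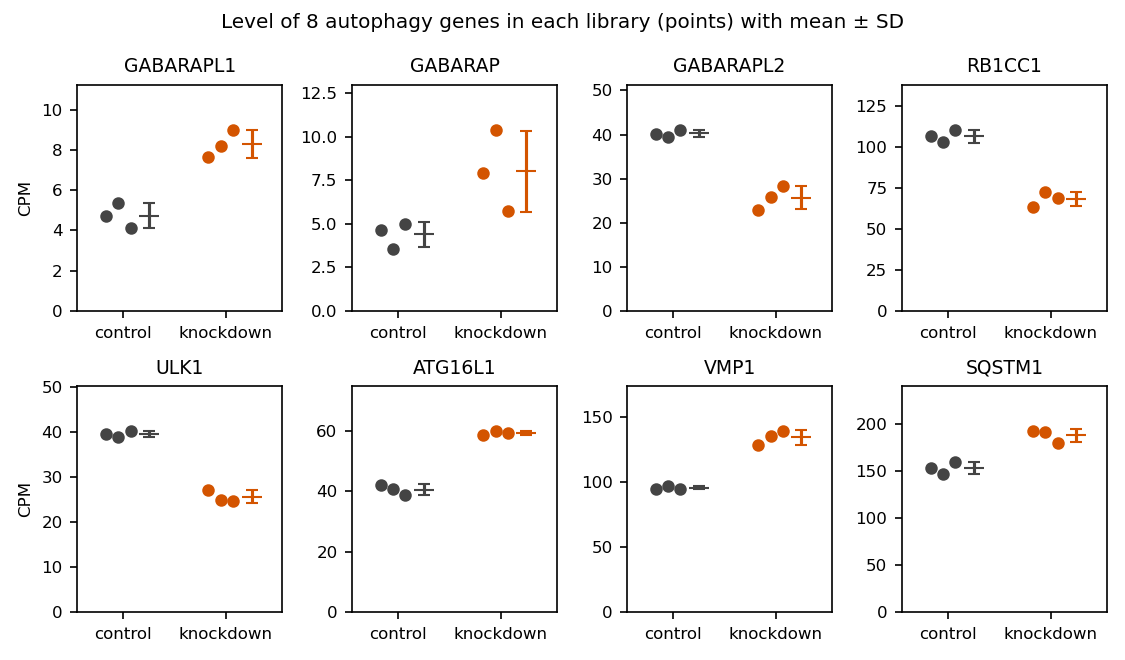
Level of 8 autophagy genes in each library, in CPM on axes that start at 0 (points are libraries, the bar beside them is the mean ± SD, n = 3). The panels hold the members called with at least a 1.5-fold difference, and ATG16L1, VMP1 and SQSTM1. GABARAPL1 rises from 4.74 to 8.28 CPM on average while GABARAPL2 falls from 40.2 to 25.7 CPM. The groups do not overlap in any of these 8 selected genes, beside 64.3% of all genes tested.

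Paralogs within a library share its depth and scaling, so their ratio does not depend on the normalisation. The 4 pairs set side by side were chosen after their values were seen. The ratio of ULK1 to ULK2 (in TPM) was 5.35, 6.18 and 6.40 in the controls and with the knockdown 3.55, 3.37 and 2.71. The ratio of ATG16L1 to ATG16L2 was 0.877, 0.871 and 0.827 in the controls and 1.47, 1.5 and 1.59 with the knockdown. In TPM the more abundant paralog was thus ATG16L2 in every control and ATG16L1 in every knockdown library. TPM used merged exon lengths, 6047 bases for ATG16L1 and 8617 for ATG16L2. Which of the 2 is more abundant depends on those lengths, whereas the change in the ratio does not. The ratio of GABARAPL1 to GABARAPL2 was 0.0869, 0.101 and 0.0749 in the controls and 0.247, 0.235 and 0.237 with the knockdown. GABARAPL2 remained the more abundant of that pair in all 6 libraries. The ratio of ATG2A to ATG2B went from 2.34 to 2.48 in the controls to 2.94 to 3.35 with the knockdown. On the log2 scale the ratios differed between the groups (knockdown minus control) by -0.90, 0.82, 1.46 and 0.41 for the pairs in this order. The groups did not overlap in any pair. Since the pairs were picked for their values, no test is given.

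**Figure D3:**
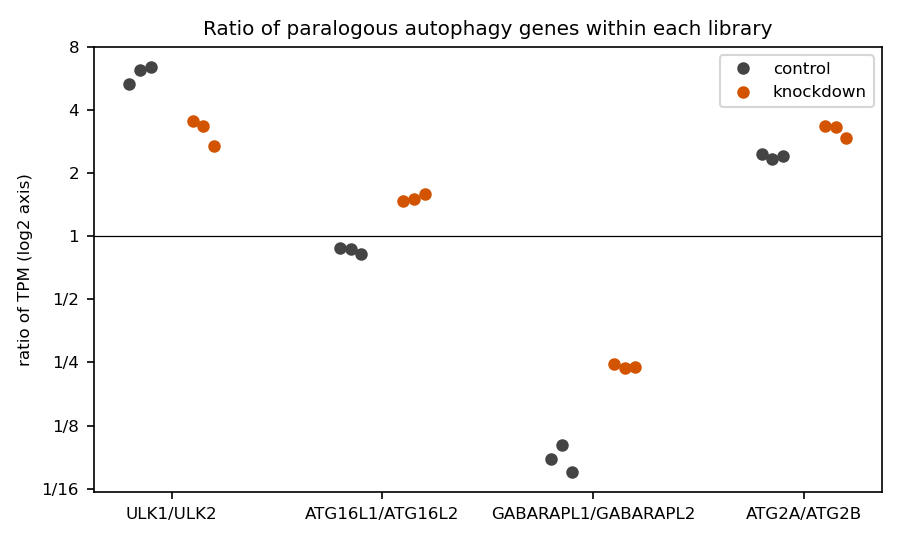
Ratio of TPM between paralogous autophagy genes within each library, on a log2 axis (points are libraries, 3 a group). The ratio of ATG16L1 to ATG16L2 lies below 1 in all controls and above 1 in all knockdown libraries.

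Genes whose levels move can be set beside the letters of their promoters. RefSeq promoter windows (GRCh38.p14, 250 bases before to 50 after the start) were found for 38 of the 44 members, in 47 windows. Letter patterns chosen with the results known were searched on both strands; the patterns do not exclude each other. The E-box core CACGTG, bound by TFEB and MYC among others, occurred in the windows of 2 of 38 members, beside 7.26% of all 35116 windows. For every pattern a member counts if any of its windows matches, while the percentages are over single windows, so the units differ. The cyclic AMP element TGACGTCA occurred in 1, beside 1.85%, and the FOXO pattern TGTTTAC in 1, beside 3.42%. The antioxidant core TGACNNNGC occurred in 4, beside 13.3%, and a pattern of the interferon-stimulated response element in 0, beside 3.57%. The 4 with the antioxidant core were TECPR1 and CALCOCO2 (called higher), MAP1LC3B (called lower) and ATG101 (no call), and their stretches around it are not printed. The 30 bases around the first 3 patterns are shown, with the match in capitals, because they cover a gene that rose more than 1.5-fold (GABARAPL1), others that rose less (ATG14, CALCOCO2) and ATG3, which holds the E-box core at 2 places and had no call.
GABARAPL1, cyclic AMP element, chr12:10212836-10212865, plus strand: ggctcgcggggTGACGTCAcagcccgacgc
ATG14, E-box core, chr14:55411834-55411863, minus strand: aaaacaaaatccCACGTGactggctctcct
ATG3, E-box core, chr3:112561963-112561992, minus strand: cctttctcacgtCACGTGccgggagagtct
ATG3, E-box core, chr3:112561940-112561969, minus strand: agagtctagtgtCACGTGaggccccggtgg
CALCOCO2, FOXO pattern, chr17:48830797-48830826, plus strand: aaaaaaagaaaaGTAAACAgcttcttccag
A match is a description of these letters only, and a window without one says nothing about the factor.

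Of the 7 genes in the group of cargo receptors and PINK1, 4 rose and 3 had no call. Over all genes tested 29.4% were called higher and 30.5% lower, so a count in so small a group is a description only. SQSTM1, which encodes the receptor p62 for ubiquitinated cargo, stood at 153, 146 and 159 CPM in the controls and at 192, 191 and 179 CPM with the knockdown. It rose by 0.30 on the log2 scale with a standard error of 0.04 (edgeR adjusted p = 1.05e-07), and all knockdown libraries were above all controls. NBR1, a receptor that works with p62, rose by 0.41 (edgeR adjusted p = 7.53e-09). CALCOCO2, the receptor NDP52 for bacteria and mitochondria, rose by 0.24 (edgeR adjusted p = 4.29e-07), and FUNDC1, a receptor in the outer mitochondrial membrane, by 0.39 (edgeR adjusted p = 0.00335). OPTN and TAX1BP1, also ubiquitin-binding receptors, and PINK1, the kinase that marks damaged mitochondria, had no call, with log2 fold changes of -0.08, -0.07 and 0.12. TAX1BP1 was called lower without knockdown replicate 3 (log2 fold change -0.09, edgeR adjusted p = 0.0333) and without both libraries that stood apart (-0.10, 0.0217), over a range of 0.0217 to 0.764. At the last step, TECPR1 and EPG5, which help autophagosomes meet lysosomes, rose by 0.39 (edgeR adjusted p = 2.53e-06) and 0.26 (0.000218). FYCO1, an adaptor for transport along microtubules, had no call at -0.04.

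In TPM, which is not TMM-scaled, SQSTM1 (67.4 ± 3.69), CALCOCO2 (65.1 ± 1.52) and ATG13 (62.2 ± 2.71) were the most abundant members in the controls (SD, n = 3). SQSTM1 and CALCOCO2 differed by less than the SD of SQSTM1, so their order is not settled. The least abundant that were tested were WIPI1 (2.54 ± 0.471), ULK2 (2.96 ± 0.302) and GABARAPL1 (3.92 ± 0.455). With the knockdown SQSTM1 and CALCOCO2 stayed at the top, at 80.1 ± 3.51 and 74.4 ± 0.889 TPM, followed by VMP1 at 63.4 ± 2.13 TPM, which lay above ATG13 at 53.1 ± 0.470 TPM. Together the members took 0.211 to 0.217% of all counts in a control and 0.224 to 0.227% in a knockdown library. On the TMM scale the groups overlapped: the members summed to 2158 to 2201 CPM in the controls and 2196 to 2235 CPM with the knockdown.

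**Figure D4:**
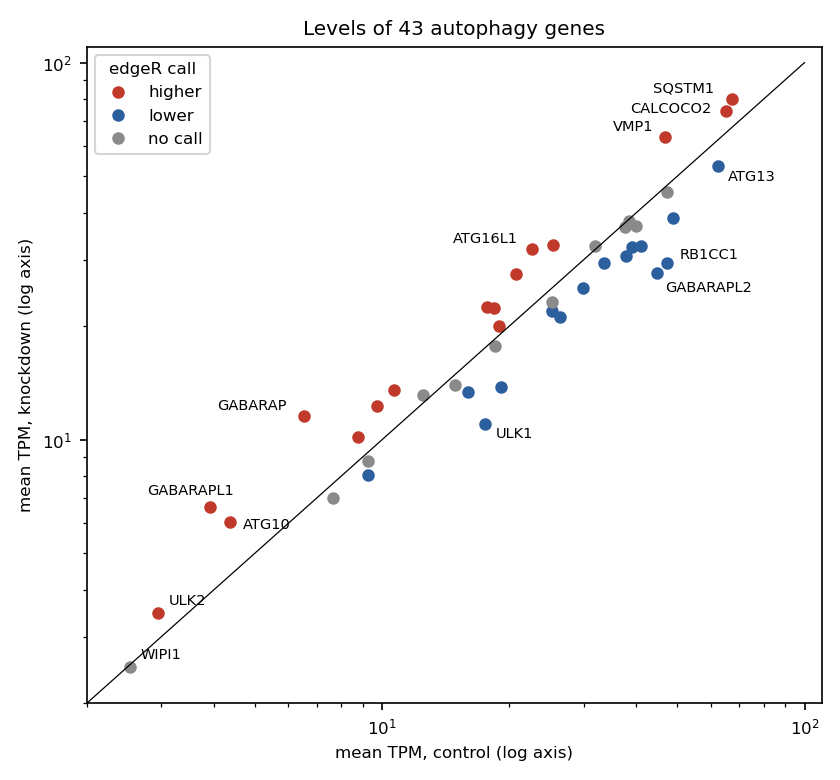
Mean TPM of 43 autophagy genes in the controls and in the knockdown libraries, on log axes (3 libraries a group, colours are the edgeR call, the line marks equal levels). Levels run from WIPI1 at 2.54 TPM to SQSTM1 at 67.4 TPM in the controls, and the points stay close to the line.

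The 12 members without a call had log2 fold changes between -0.08 and 0.12 and adjusted p between 0.131 and 0.925, and in 11 of them the groups overlapped. A p that misses the threshold does not show that levels were equal. For 9 members more than 10% of their 50-base stretches also occur in transcripts of other annotated genes, and the strand setting of the counting is not given in the sources used here. Besides GABARAP these are PINK1, which lies opposite PINK1-AS (37.8% shared), ATG9A (33.6%), WIPI1 (24.4%), SQSTM1, opposite MRNIP (20.2%), ATG101 (17.1%), ATG7, opposite VGLL4 (16.4%), BECN1 (14.1%) and ATG4D, opposite KRI1 (10.5%). Their values are uncertain to that extent. MRNIP and VGLL4 had no call (log2 fold changes 0.00 and 0.03), whereas KRI1, with 17951 counts over all libraries beside 4185 for ATG4D, was called lower at -0.44.

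Beyond the 44 members, 68 further autophagy genes were listed by step, and 64 of them were tested. Of these 25 were higher, 23 lower and 16 without a call, with a median log2 fold change of 0.08. Over all genes tested 29.4% were higher and 30.5% lower, and the counts of each list below, of 1 to 13 tested genes, stand beside those shares. Among transcription factors and their regulators 3 of 9 rose and 2 fell. TFEB, the main activator of lysosomal and autophagy genes, was at 36.0 ± 2.20 and 37.4 ± 0.459 CPM (SD, n = 3) with no call (edgeR adjusted p = 0.426), while its relative TFE3 rose by 0.43 (edgeR adjusted p = 1.35e-07). ZKSCAN3, known as a repressor of autophagy genes, rose by 0.64 (4.48e-08), and FOXO3, an activator, fell by 0.37 (2.34e-05). TFEB was named after its value was seen. In the list of initiation and nucleation 7 of 11 rose and 3 fell, among them the lipid kinase PIK3C2A at 0.46, the membrane-bending SH3GLB1 at 0.34 and the PI3P reader WDR45B at 0.27 (largest edgeR adjusted p of the 3, 3.61e-06). In the list of fusion and maturation 6 of 13 rose and 5 fell. The tethering subunit VPS11 rose by 0.67 (edgeR adjusted p = 2.53e-12), while the GTPase RAB7A and the SNARE VAMP8 were lower, at -0.27 and -0.30 (edgeR adjusted p = 1.08e-08 and 5.92e-08).

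In the mitophagy list, which holds receptors and regulators, 5 of 9 fell and 2 rose, with a median of -0.18; those that rose were FUNDC2 (0.25) and the deubiquitinase USP8 (0.17). BNIP3L, the mitophagy receptor NIX, fell from 101 ± 1.80 to 56.3 ± 2.11 CPM (SD, n = 3; log2 fold change -0.85, edgeR adjusted p = 1.57e-15), and the outer membrane receptors BCL2L13 and FKBP8 were lower too, at -0.34 and -0.28 (edgeR adjusted p = 5.08e-08 and 1.36e-08). In the list of receptors for the endoplasmic reticulum, iron stores and other cargo 5 of 10 fell, 1 rose (NCOA4, the ferritin receptor, at 0.12) and 4 had no call, with a median of -0.11. The reticulum receptors SEC62 and CALCOCO1 were among those without a call, at -0.05 and 0.11. FUNDC2, USP8, NCOA4, SEC62 and CALCOCO1 are outside the naming rule and were picked with their values in view. The receptors RETREG1, CCPG1 and RTN3 were lower, at -1.18, -0.65 and -0.51 (largest edgeR adjusted p of the 3, 4.78e-05). Among stress-induced regulators 6 of 11 rose and 3 fell. The mTORC1 inhibitors DDIT4 and SESN2 were lower, at -1.33 and -1.18, and TRIM21, a ubiquitin ligase that is also an interferon-induced gene, rose by 0.89 (edgeR adjusted p = 2.00e-12). MAP1LC3B2, the only further ATG8 gene tested, had no call.

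**Figure D5:**
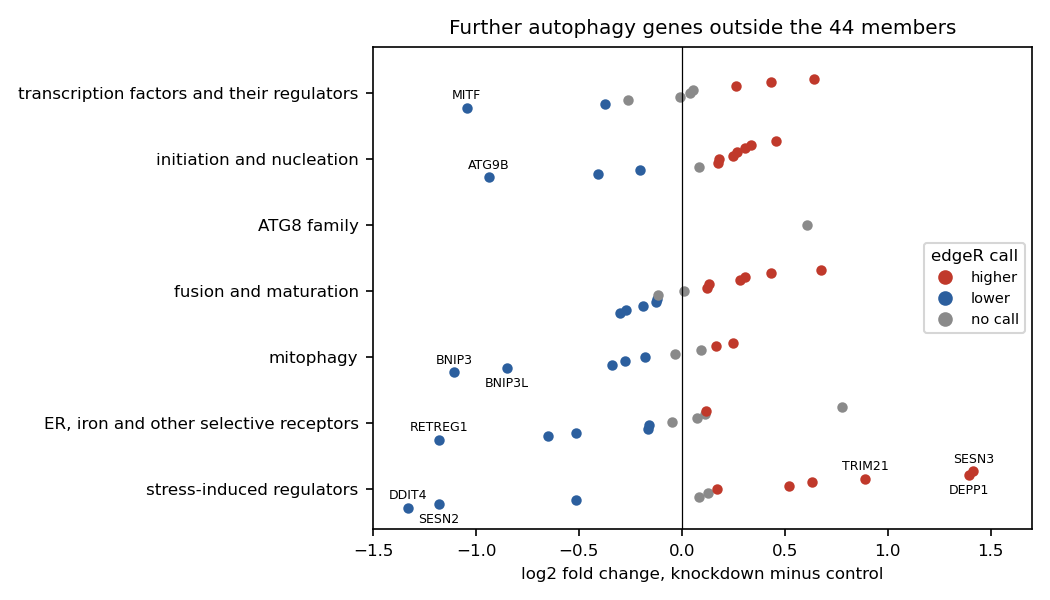
Log2 fold change of 64 further autophagy genes by list, knockdown minus control (each point is a gene, colours are the edgeR call). The widest range is among the stress-induced regulators, from DDIT4 at -1.33 to SESN3 at 1.42.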

How the data were processed

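RNA was taken up in Trizol and sequenced from TruSeq libraries, per the labels' protocols. HISAT2 2.0.5 and hg38 were used, per the submitters' processing notes; for the read counter, its annotation and strandedness the sources used here give nothing. The authors deposited raw counts per Ensembl gene, 1 column per library. Samples were grouped by title, and columns were matched by group letters and replicate number.

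Symbols came from a table of Ensembl identifiers (23211 of 23227 matched). The test was edgeR 4.0.16 under R 4.3.3 (TMM, filterByExpr, robust quasi-likelihood fit, two-sided, Benjamini-Hochberg over 14635 genes, threshold 0.05). Standard errors are approximate (the log2 fold change over the square root of F). TPM and exon overlaps used merged exons of GENCODE release 29 (GRCh38, the build named hg38), which covered 99.62% of counts. Libraries of a group differed by a chi-square of 2.06 to 3.95 per degree of freedom, and those of different groups by 64.3 to 69.3. Calls carry counting error and library spread only.

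Values in every library are given for members called with at least a 1.5-fold difference, for SQSTM1, the ATG8 family, ULK1, BECN1, PIK3C3, ATG5 and ATG7; of each further list, up to 3 called genes with the smallest adjusted p. Per-library values of other members, and genes said to be so, were chosen after their values were seen. The members, lists and motifs were chosen with earlier results of these data known, so no list was tested as a set. Alternatives were RLE, upper-quartile and library-size scaling, no filter, 5 CPM in 3 libraries, DESeq2 1.42.0, limma-voom (3.58.1), a replicate block, leaving out each library, a threshold of 0.01 and at least 1.5-fold. Thinning, and leaving out control replicate 2 with knockdown replicate 3, were added after the data were seen. Not reported here are 1 of the B cell markers and the sum that holds it.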

Additional observations from a re-analysis of the deposited data

How the results depend on the processing

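Over 16 alternative fits the 43 members gave 687 values, of which 620 kept their direction and their side of the threshold. A call was lost in 38 cases, gained in 2 and the sign turned in 27, each of these last in a member without a call. Of the 31 called members 26 kept their call in every fit. The other 5 were AMBRA1, MAP1LC3B, PIK3C3, TMEM41B and ULK2. With at least 1.5-fold required, 2 members were higher and 3 lower, 6 and 8 of the further genes, and 1805 and 1283 of all genes. Leaving out a library gave 14 to 15 members higher and 12 to 16 lower. Of all genes, those fits called 3950 to 4228 higher and 4140 to 4515 lower. Same-numbered libraries showed no shared deviation (correlations of 0.00289, 0.00917 and -0.0225, and not every library correlated best with its own number). With 3 libraries a group this cannot tell whether same-numbered libraries were prepared together. With the replicate block 15 members were higher and 15 lower, beside 4165 and 4325 of all genes. Among the members only AMBRA1 lost its call there (edgeR adjusted p = 0.0579). Thinned to the smallest library, 15 members were higher and 14 lower. The median of the members was 0.03 with upper-quartile scaling (0.0309), 0.0456 with library-size scaling and -0.0463 without the libraries that stood apart. Over all genes tested the median was 0.0429 with upper-quartile and 0.0576 with library-size scaling.

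Signs turned under upper-quartile scaling for ATG12 (0.0174), ATG3 (0.0309) and ATG4A (0.0059). They turned under library-size scaling for ATG12 (0.0320), ATG3 (0.0456), ATG4A (0.0206) and FYCO1 (0.0129). At 5 CPM they turned for ATG12 (0.0175), ATG3 (0.0309) and ATG4A (0.00588), without a filter for ATG5 (-0.0132), after thinning for ATG4A (0.00519), and without the libraries that stood apart for WIPI1 (-0.164) and ATG5 (-0.00098). With a library left out, ATG12 ran from -0.0847 to 0.0164, ATG3 from -0.0592 to 0.0346, ATG4A from -0.161 to 0.117, ATG5 from -0.0068 to 0.0291, FYCO1 from -0.0887 to 0.0144 and WIPI1 from -0.108 to 0.135. The cause was not tested. The members below 10 CPM have the widest errors: 47 to 75 counts for WIPI1 leave a standard error of 0.20 on the log2 scale.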

Other observations

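Some autophagy genes outside the 44 had larger differences than any member. Those named here, apart from SESN2, were chosen after their values were seen. The transcription factor MITF, a relative of TFEB, stood at 2.01 ± 0.356 CPM in the controls and fell to 0.973 ± 0.172 CPM (SD; n = 3 a group; edgeR adjusted p = 0.00151). BNIP3, the mitophagy receptor related to BNIP3L, fell from 6.20 ± 0.790 to 2.88 ± 0.196 CPM (edgeR adjusted p = 6.57e-07). SESN3, a sestrin, rose from 1.76 ± 0.349 to 4.72 ± 1.11 CPM (edgeR adjusted p = 1.12e-06), while its relative SESN2 fell from 24.3 ± 0.0306 to 10.7 ± 1.51 CPM (edgeR adjusted p = 4.93e-12). DEPP1, a FOXO target, rose from 2.78 ± 0.246 to 7.31 ± 0.869 CPM (edgeR adjusted p = 6.90e-09). All of these but SESN2 were at low levels.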
